A study of Mus musculus with 15 samples.

Results

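Axon guidance ligands and receptors are 67 genes of the classical guidance families, chosen by symbol from the class 3 to 6 semaphorins (Sema), plexins (Plxn), neuropilins (Nrp), ephrins (Efn), Eph receptors, Slits, Robos, netrins and netrin-Gs (Ntn, Ntng), Unc5 receptors and Dcc. A member had to be listed in all 15 count tables, which share 46380 gene symbols. Of 69 matching symbols, Ntn3 was listed only in the PTU+TH and PTU tables and Plxna3 was left out by the rule. The members comprised 35 ligands and 32 receptors. Nuclear RNA was sequenced from fluorescent nuclei sorted from the cortex of adult mice, 1 mouse per library. PTU+TH mice (n = 4, replicates 1 to 4) ate food with propylthiouracil (PTU), a blocker of thyroid hormone synthesis, for 2 weeks and received thyroid hormone (TH) intraperitoneally 24 h before dissection. PTU mice (n = 3, replicates 5 to 7) had the same diet without the injection. Mut mice (n = 4) were ThraAMI/+ animals, whose floxed allele expresses TRalpha1L400R, a dominant negative form of thyroid hormone receptor alpha. Ctrl mice (n = 4) were their untreated Thra+/+ littermates. The PTU+TH and PTU mice were also Thra+/+, and every mouse carried PvCre, which drives Cre in parvalbumin cells, and the ROSA-tomato-lox reporter. The question was which guidance genes of parvalbumin neurons, a class of fast-spiking cortical interneurons, respond to the hormone or to the blocked receptor.

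Guidance ligands are secreted or membrane-bound cues that attract or repel growing axons, and their receptors turn them into changes of the growth cone cytoskeleton. Secreted semaphorins signal through neuropilin and plexin complexes, membrane semaphorins mostly through plexins directly, ephrins through the Eph receptor tyrosine kinases, Slits through Robos, and netrins through Dcc and the Unc5 family. In the mature cortex several of these families act at synapses and in the maintenance of circuits. Thyroid hormone receptors bind the half-site AGGTCA, often as a direct repeat with 4 bases between the copies.

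Epha4 and Efna3 were the members that passed in the test of the difference of effects described below. Neither passed in PTU+TH against PTU mice, and only Epha4 passed in Mut against Ctrl mice. The 250 bases before their RefSeq gene starts (GRCm38.p6, both on the minus strand) are shown. Epha4, an Eph receptor that binds ephrins of both classes, lies on chromosome 1 from 77367185 to 77515088, and the window shown is chr1:77515089-77515338. Efna3, a membrane-anchored ephrin-A ligand, lies on chromosome 3 from 89313899 to 89322965, and the window shown is chr3:89322940-89323189. It reaches 26 bases into that GENCODE span, because the RefSeq start lies inside it. Capitals mark GGTCA, the core of the half-site, searched on both strands.
Epha4: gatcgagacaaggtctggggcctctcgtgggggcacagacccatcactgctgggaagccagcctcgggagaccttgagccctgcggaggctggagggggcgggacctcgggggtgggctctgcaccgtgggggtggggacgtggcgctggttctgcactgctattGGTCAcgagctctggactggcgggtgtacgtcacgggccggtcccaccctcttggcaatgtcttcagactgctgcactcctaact
Efna3: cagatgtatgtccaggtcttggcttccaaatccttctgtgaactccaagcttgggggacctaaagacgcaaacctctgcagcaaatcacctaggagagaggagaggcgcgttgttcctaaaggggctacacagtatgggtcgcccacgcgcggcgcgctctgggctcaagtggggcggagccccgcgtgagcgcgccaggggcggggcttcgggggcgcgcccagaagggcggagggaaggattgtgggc
The Epha4 window held 1 GGTCA and no AGGTCA. The Efna3 window held neither. The window of another RefSeq start of Efna3 (chr3:89321769-89322018), not shown, held neither as well. Over all 32851 RefSeq windows of the same length, 35.2% held GGTCA and 14.0% held AGGTCA on either strand. The direct repeat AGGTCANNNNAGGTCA was found in 5 windows, and in 0 of the 73 windows of the 57 members in the table. AGGTCA, which includes GGTCA, was found in 11 of the 73 member windows (15.1%) and GGTCA in 23 (31.5%). A match of letters is a description and not a bound site.

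The libraries held 12957838 to 19141683 counts in PTU+TH and PTU mice and 22333742 to 32571175 in Mut and Ctrl mice. The 2 sets of tables list different genes, so groups were compared within a set only. Averages and SDs over the 15 libraries pool both sets and include any difference between them. The 12 parvalbumin neuron markers summed to 6315 to 10061 CPM (counts scaled to the library total), with Gad1 at 938 to 1834 CPM and Pvalb at 63.8 to 145 CPM. Cox6a2 had 0 counts in every library. Some of these markers, such as Gad1, are not limited to parvalbumin cells, so the sum is no measure of their purity. The 11 other interneuron markers summed to 105 to 352 CPM. The 14 excitatory markers summed to 369 to 493 CPM, the 9 astrocyte markers to 56.3 to 118 CPM the 11 oligodendrocyte lineage markers to 81.03 to 228 CPM, the 8 microglial markers to 53.7 to 101 CPM and the 10 endothelial and mural markers to 10.2 to 35.6 CPM; Gfap and P2ry12 had 0 counts in every library. Hr, a textbook thyroid hormone target gene, had 46.3, 44.9, 43.1 and 49.5 CPM in PTU+TH mice against 2.52, 5.94 and 3.29 CPM in PTU mice, and 1.64, 4.07, 0.461 and 0.886 CPM in Mut mice against 15.2, 15.4, 13.3 and 12.5 CPM in Ctrl mice. Thra itself had 29.0, 29.5, 37.4 and 31.6 CPM in Mut mice against 57.8, 57.8, 48.2 and 62.8 CPM in Ctrl mice; the labels do not say which exons of the altered allele yield reads. Counts of 4 Y-linked genes, summed, were above 50 CPM in PTU+TH replicates 3 and 4, PTU replicates 6 and 7, Mut replicates 1, 2 and 3 and Ctrl replicate 2, and at most 3.19 CPM in the others; the labels do not give sex. Mut replicate 2 held the smallest share of counts in genes over 100 kb of its set, 27.4% against 29.5% to 39.7% in the other Mut and Ctrl libraries, and results that rest on it are given without it.

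Most guidance genes were measurable in these adult nuclei. Averaged over the 15 libraries, 14 members had over 100 CPM, 11 had 50 to 100, 12 had 10 to 50, 20 had 1 to 10, and 10 had under 1 CPM. Levels between genes were set per kb of exon. The counting mode is not given, so counts of this nuclear RNA may include intronic reads. Genes of unlike span may then not be comparable in these levels. The highest were the receptors Plxna4, a plexin for class 3 and 6 semaphorins (50.9 ± 9.9 CPM per kb, SD, n = 15), Epha6 (49.6 ± 16.7) and Ephb6, an Eph receptor without kinase activity (49.3 ± 11.5). They were followed by the ligand Efna5 (33.2), the receptor Epha10 (32.8), the secreted netrin Ntn4 (26.5) and the Slit receptor Robo2 (25.9 CPM per kb). Sema6b, a transmembrane semaphorin, had 22.6 CPM per kb, and the secreted Slit3 and Slit2 had 19.6 and 17.2. Each gene's range over the libraries overlapped that of the next gene in this order, over the whole list.

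**Figure D1:**
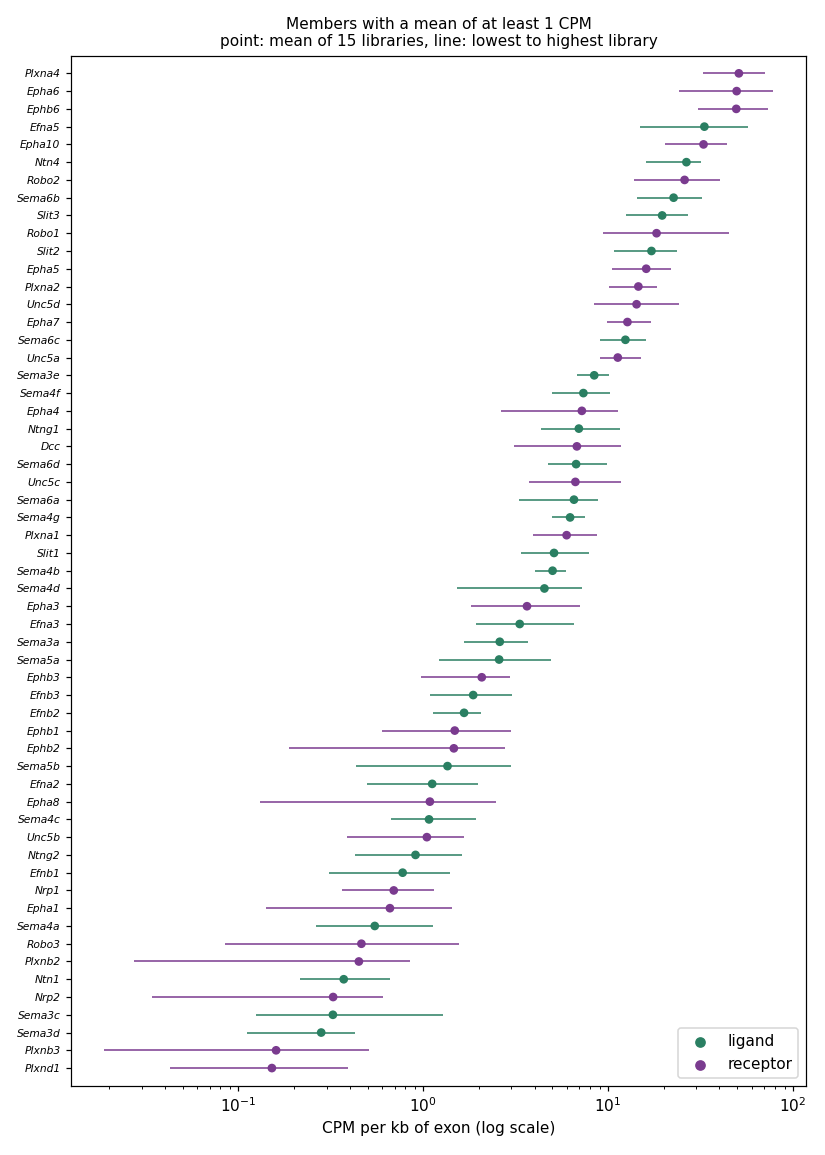
Level of each member with a mean of at least 1 CPM, in CPM per kb of exon on a log axis, ordered from highest to lowest. Points are means of the 15 libraries and lines run from the lowest to the highest library, green for ligands and purple for receptors; neighbouring lines overlap throughout, from Plxna4 at 50.9 to Plxnd1 at 0.152 CPM per kb.

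Within the families the level per kb of exon was uneven, under the same limit. Among Eph receptors, Epha6, Ephb6, Epha10, Epha5 (16.1), Epha7 (12.7) and Epha4 (7.21 CPM per kb) were well above Ephb1 (1.48) and Ephb2 (1.46), and Epha2 and Ephb4 had under 0.1 CPM per kb. Among the Dcc and Unc5 receptors, which convey attraction and repulsion by netrin, Unc5d (14.3), Unc5a (11.3), Dcc (6.78) and Unc5c (6.65 CPM per kb) exceeded Unc5b (1.05). The ligand Ntn1 had 0.372 CPM per kb. Neuropilins, the co-receptors of class 3 semaphorins, were low, with Nrp1 at 0.693 and Nrp2 at 0.326 CPM per kb. The endothelial receptor Robo4 had 0.0112 CPM per kb. Members were long genes: their median span was 58.5 kb against 17.6 kb for 21150 protein-coding genes, and 32 of 67 (47.8%) were over 100 kb against 11.5%.

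The receptor comparison moved Epha4. Epha4 had 31.5, 32.6, 21.2 and 29.4 CPM in Mut mice against 66.3, 49.1, 61.0 and 58.2 CPM in Ctrl mice. Every Mut library lay below every Ctrl library. Its log2 fold change was -1.05 ± 0.16 (SE; edgeR adjusted p = 0.0227), lower in Mut mice. It was the only member of 59 tested that passed an adjusted p of 0.05, where 0.348% of all 16949 genes tested did so, 0.124% higher and 0.224% lower. The adjusted p was 0.0237 to 0.0986 when single libraries were left out, under 0.05 in 3 of the 8 omissions (Mut replicates 2 and 3 and Ctrl replicate 2), and the fold change was -1.09 without Mut replicate 2. The call was lost with the presence of Y-linked counts in the fit (-0.92, adjusted p = 0.12). Within libraries with Y-linked counts the mean was 28.4 CPM in 3 Mut mice and 49.1 CPM in 1 Ctrl mouse, and within those without it was 29.4 CPM in 1 Mut mouse and 61.8 CPM in 3 Ctrl mice. In bulk nuclei, fewer nuclei with the transcript and less transcript per nucleus cannot be told apart.

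The other members shifted little on balance in Mut against Ctrl mice. Of the 59 tested, 32 had positive and 27 negative log2 fold changes, with a median of 0.04 against 0.01 over all genes. At an unadjusted p under 0.05 there were 10 members (16.9%), against 8.74% of all genes. The groups did not overlap in 7 members, where 5.89% of all genes did not, 2.57% higher and 3.33% lower: Efna3, Plxnb2, Sema3f and Sema5b were higher in every Mut library, and Epha4, Ephb2 and Ntn4 were lower.

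Among the ligands, Efna3 and then Sema5b had the smallest p-values in Mut against Ctrl mice. Efna3 had 8.14, 15.9, 10.6 and 9.03 CPM in Mut mice against 4.70, 5.30, 5.46 and 5.20 CPM in Ctrl mice. All Mut libraries were above all Ctrl libraries, and Mut replicate 2 was the highest. The log2 fold change was 1.05 ± 0.23 (SE; edgeR adjusted p = 0.0912), and 0.86 without Mut replicate 2 (adjusted p = 0.0909). Over the 8 omissions of 1 library it was 0.86 to 1.16 (edgeR adjusted p = 0.0909 to 0.276). Efna3 did not pass the threshold in edgeR, while DESeq2 gave an adjusted p of 0.00108. Over all 16 alternatives the adjusted p ran up to 0.334 and was under 0.05 in 3. Of its exonic bases, 14.1% are shared with Gm15998, and reads of overlapping genes could not be separated. Efnb1, a transmembrane ephrin, had 4.15, 3.85, 3.68 and 1.31 CPM in Mut mice against 1.06, 1.43, 2.07 and 1.69 CPM in Ctrl mice, and Mut replicate 4 fell within the Ctrl range (edgeR adjusted p = 0.436).

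Sema5b, a transmembrane semaphorin with thrombospondin repeats, had 13.9, 8.82, 9.70 and 21.1 CPM in Mut mice against 6.05, 3.07, 8.29 and 6.46 CPM in Ctrl mice. The groups did not overlap, by a narrow gap, with a log2 fold change of 1.16 ± 0.36 (SE; edgeR adjusted p = 0.293). With Y-linked counts in the fit it was 1.72 (adjusted p = 0.0431). The Sema5b value was 0.84 to 1.35 when single libraries were left out (edgeR adjusted p = 0.135 to 0.584). Its relative Sema5a had 91.3, 47.0, 62.9 and 77.4 CPM in Mut mice against 56.2, 40.1, 44.7 and 50.8 CPM in Ctrl mice, with Mut replicate 2 inside the Ctrl range. The log2 fold change of Sema5a was 0.53 ± 0.21 (SE; adjusted p = 0.467). Sema3f, a secreted semaphorin that binds Nrp2, was at the limit of detection, with 13, 10, 23 and 11 counts in Mut libraries against 0, 3, 6 and 6 counts in Ctrl libraries. Sema6b had 57.01, 79.7, 72.7 and 58.9 CPM in Mut mice against 77.3, 103, 76.6 and 84.0 CPM in Ctrl mice, overlapping groups with a log2 fold change of -0.36 ± 0.13 (SE; adjusted p = 0.415).

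Slit1, a secreted repellent, had 41.1, 23.2, 46.7 and 34.5 CPM in Mut mice against 21.02, 32.1, 20.1 and 22.9 CPM in Ctrl mice, and its groups overlapped through Mut replicate 2 and Ctrl replicate 2 (log2 fold change 0.60 ± 0.23, SE; edgeR adjusted p = 0.449). Over omissions of 1 library the Slit1 value was 0.45 to 0.78 (edgeR adjusted p = 0.0893 to 0.7825). Slit2, the most abundant Slit in CPM, had a log2 fold change of -0.08 (adjusted p = 0.956). Ntn4 had 100.2, 59.7, 98.9 and 85.8 CPM in Mut mice against 113, 101, 103 and 101 CPM in Ctrl mice. Its log2 fold change was -0.28 ± 0.17 (SE), and -0.12 without Mut replicate 2. The membrane-tethered Ntng1 and Ntng2 had log2 fold changes of -0.24 and -0.30 (adjusted p = 0.887 and 0.892). Sema3a, Sema3e, Sema4d and Sema4g had log2 fold changes of 0.21, -0.06, -0.38 and -0.05 in Mut against Ctrl mice, with adjusted p-values of 0.756 to 0.981. The Sema4d value was -0.19 without Mut replicate 2. Sema6d, Efna2, Efna5 and Efnb2 had log2 fold changes of 0.30, -0.02, -0.17 and 0.09, with adjusted p-values of 0.876 to 0.998.

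Among the receptors, Plxnb2, a plexin for class 4 semaphorins, had 4.71, 5.19, 3.99 and 4.51 CPM in Mut mice against 2.25, 0.21, 1.67 and 3.23 CPM in Ctrl mice. The Mut libraries were all higher, and the log2 fold change was 1.29 ± 0.55 (SE; edgeR adjusted p = 0.519). Ephb2, a receptor for ephrin-B ligands, had 13.1, 2.37, 11.7 and 12.8 CPM in Mut mice against 17.1, 19.3, 16.2 and 17.5 CPM in Ctrl mice. The groups did not overlap, and Mut replicate 2 was far below the rest: the log2 fold change was -0.80 ± 0.41 (SE), and -0.47 without that library (adjusted p = 0.272). Ephb1 and Ephb6 had log2 fold changes of -0.36 and 0.24 (adjusted p = 0.815 and 0.673). Nrp1 had 5.55, 3.94, 4.39 and 7.68 CPM in Mut mice against 11.2, 7.99, 6.41 and 6.82 CPM in Ctrl mice, overlapping, with a log2 fold change of -0.60 ± 0.30 (SE; adjusted p = 0.622), and -0.38 without Ctrl replicate 1. Robo3, a divergent Robo, had a log2 fold change of -0.59 ± 0.33 (SE; adjusted p = 0.701) and Robo2 one of 0.25 (adjusted p = 0.859). Dcc had 154, 90.8, 138 and 110 CPM in Mut mice against 140, 52.9, 74.4 and 82.2 CPM in Ctrl mice, and its groups overlapped (log2 fold change 0.48 ± 0.28, SE; adjusted p = 0.73). The Dcc value was 0.83 without Ctrl replicate 1 and 0.29 without Ctrl replicate 2. Plxna1, Plxna4, Epha5, Nrp2, Unc5c and Unc5d had log2 fold changes of -0.27 to 0.22 with adjusted p-values of 0.718 to 0.981. Other interneuron markers moved with this comparison: their 11 genes summed to 223 to 352 CPM in Mut mice against 182 to 203 CPM in Ctrl mice, with Calb2 and Htr3a under 0.5 CPM in every library, and 0 of 9 tested passed. Their part in these values was not tested.

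**Figure D2:**
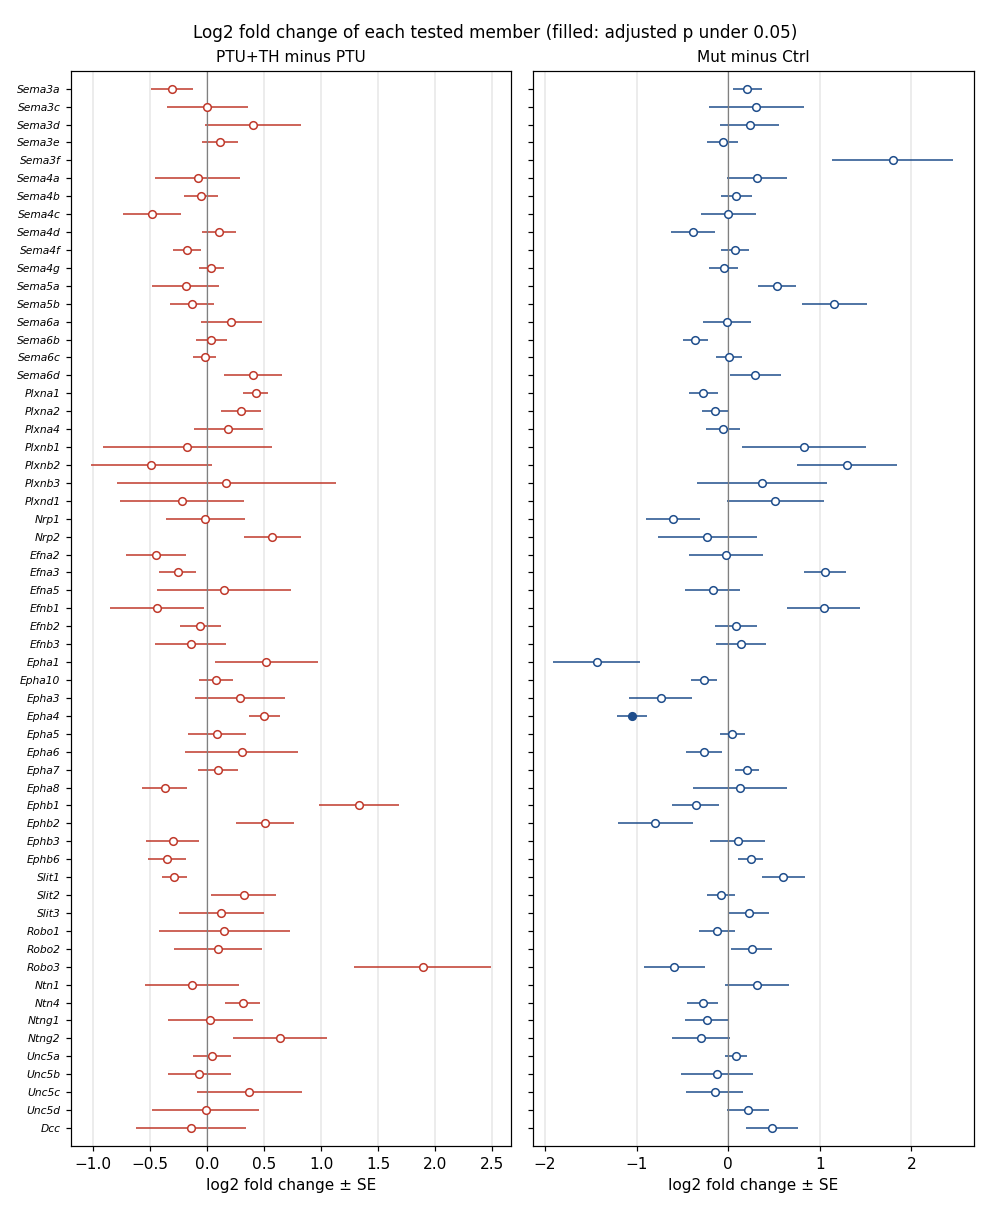
Log2 fold change of each tested member with its standard error, in PTU+TH minus PTU mice (left) and Mut minus Ctrl mice (right), in the order of the families. Filled points have an adjusted p under 0.05: Epha4 on the right, at -1.05, and none on the left.

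The hormone injection moved no member past the threshold. Of 58 members tested in PTU+TH against PTU mice, 0 had an edgeR adjusted p under 0.05, where 0.281% of all 15288 genes tested did, 0.255% higher and 0.0262% lower. There were 6 members at an unadjusted p under 0.05 (10.3%, against 7.37% of all genes), namely Epha4, Ephb1, Nrp2, Plxna1, Robo3 and Slit1, and DESeq2 called 2 members, Ephb1 and Plxna1. The log2 fold changes were positive in 33 and negative in 25 members, with a median of 0.04 against -0.00 over all genes. The median was 0.09 over 29 receptors, 19 of them positive, and -0.02 over 29 ligands, 14 of them positive. In 5 members the groups did not overlap, where 7.25% of all genes did not, 3.43% higher and 3.82% lower: Epha4, Ephb1 and Nrp2 were higher and Epha8 and Slit1 were lower in every PTU+TH library. Epha8 had 9.02, 7.37, 7.87 and 6.28 CPM in PTU+TH mice against 9.06, 11.7 and 10.01 CPM in PTU mice, a gap of under 0.1 CPM between the nearest libraries.

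The receptors included 5 of these 6 members. Epha4 had 90.9, 83.3, 83.1 and 80.6 CPM in PTU+TH mice against 63.0, 67.2 and 53.8 CPM in PTU mice. All PTU+TH libraries were above all PTU libraries, with a log2 fold change of 0.50 ± 0.14 (SE; edgeR adjusted p = 0.311). With Y-linked counts in the fit it was 0.46 (adjusted p = 0.0279). Omitting single libraries gave 0.38 to 0.59 (edgeR adjusted p = 0.233 to 0.869). Within libraries with Y-linked counts the mean was 81.8 CPM in 2 PTU+TH mice and 60.5 CPM in 2 PTU mice, and within those without it was 87.1 CPM in 2 PTU+TH mice and 63.0 CPM in 1 PTU mouse. Ephb1, a receptor for ephrin-B ligands on chromosome 9 from 101922128 to 102354693, had 15.5, 20.8, 11.7 and 10.04 CPM in PTU+TH mice against 7.12, 4.22 and 6.72 CPM in PTU mice. The groups did not overlap, and the PTU+TH libraries without Y-linked counts were the highest. The log2 fold change was 1.33 ± 0.35 (SE; edgeR adjusted p = 0.283), with an adjusted p of 0.0222 by DESeq2, 0.0117 with Y-linked counts in the fit and 0.0231 with gene length offsets. These 3 were the only ones of 14 alternatives to pass. With single libraries left out, the value was 1.03 to 1.54 (edgeR adjusted p = 0.206 to 0.832). Within libraries with Y-linked counts Ephb1 averaged 10.8 CPM in PTU+TH mice and 5.47 CPM in PTU mice, and within those without 18.2 CPM in PTU+TH mice and 7.12 CPM in the PTU mouse.

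Plxna1, a co-receptor with neuropilins for class 3 semaphorins, had 62.3, 58.1, 73.0 and 79.0 CPM in PTU+TH mice against 44.1, 51.7 and 60.4 CPM in PTU mice. The groups overlapped between PTU+TH replicate 2 and PTU replicate 7, and the log2 fold change was 0.43 ± 0.11 (SE; edgeR adjusted p = 0.257). The adjusted p was 0.0435 by DESeq2 and 0.0177 with Y-linked counts in the fit. The Plxna1 value was 0.38 to 0.51 when single libraries were left out (edgeR adjusted p = 0.334 to 0.775). Of its exonic bases, 10.7% are shared with Gm26811. Robo3 had 1.79, 3.19, 5.09 and 10.6 CPM in PTU+TH mice against 0.583, 2.07 and 1.58 CPM in PTU mice, with PTU+TH replicate 4 the highest and replicate 1 inside the PTU range. Its log2 fold change was 1.89 ± 0.60 (SE; adjusted p = 0.421), and 2.11 with Y-linked counts in the fit (adjusted p = 0.00665). Omissions of 1 library gave 1.34 to 2.25 for Robo3 (edgeR adjusted p = 0.384 to 0.909). Nrp2 had 7.16, 4.86, 4.86 and 6.06 CPM in PTU+TH mice against 4.53, 3.25 and 4.02 CPM in PTU mice, without overlap (log2 fold change 0.57 ± 0.25, SE; adjusted p = 0.671). Ephb6 had 171, 132, 208 and 215 CPM in PTU+TH mice against 172, 269 and 275 CPM in PTU mice, with overlap at the low end (log2 fold change -0.35 ± 0.17, SE; adjusted p = 0.721). Ephb2, Unc5c, Epha5, Plxna4 and Robo2 had log2 fold changes of 0.51, 0.37, 0.09, 0.19 and 0.09, with adjusted p-values of 0.763 to 1. Unc5c moved to 1.00 without PTU replicate 5 and to 0.000134 without PTU+TH replicate 2. Plxnb2, Nrp1, Unc5d and Dcc had log2 fold changes of -0.49, -0.01, -0.01 and -0.14, with adjusted p-values of 0.983 to 1.

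Among the ligands, Slit1 had 27.7, 26.6, 27.5 and 26.9 CPM in PTU+TH mice against 31.8, 35.2 and 35.6 CPM in PTU mice. All PTU+TH libraries were lower, with a log2 fold change of -0.29 ± 0.11 (SE; edgeR adjusted p = 0.568). Ntn4 had 115, 119, 114 and 100.1 CPM in PTU+TH mice against 102, 85.9 and 90.1 CPM in PTU mice, with PTU+TH replicate 4 below PTU replicate 5 (log2 fold change 0.31 ± 0.15, SE; adjusted p = 0.758). Efna3 had 7.66, 6.48, 8.10 and 7.46 CPM in PTU+TH mice against 7.51, 9.54 and 10.4 CPM in PTU mice, overlapping, with a log2 fold change of -0.26 ± 0.16 (SE; adjusted p = 0.885). Sema4c, Sema3a, Efna2 and Efnb1 had log2 fold changes of -0.48, -0.31, -0.45 and -0.44, and Sema6d and Ntng2 of 0.40 and 0.64, with adjusted p-values of 0.789 to 0.978. Sema3e, Sema4d, Sema4g, Sema5a, Sema5b, Sema6b, Efna5, Efnb2, Ntng1 and Slit2 lay between -0.19 and 0.32 on the log2 scale with adjusted p-values of 0.973 to 1. Efna1, Efna4, Epha2, Ephb4, Ntn5, Robo4, Sema3b, Sema3f and Sema3g were under the count filter here, and all but Sema3f were under it in Mut and Ctrl mice too.

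**Figure D3:**
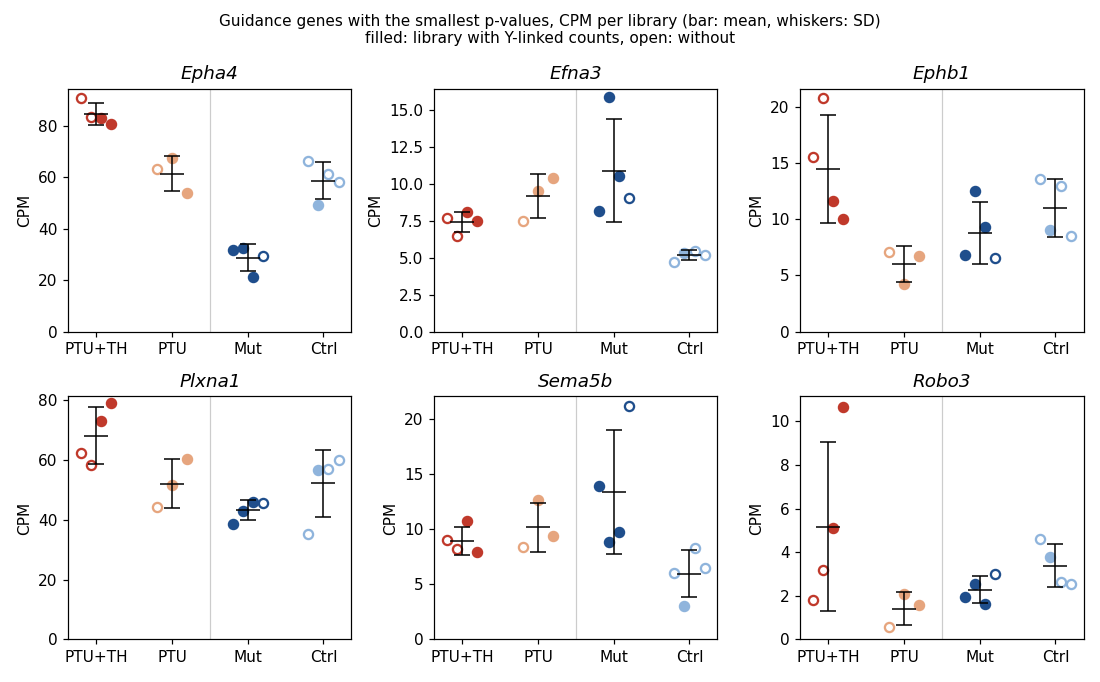
CPM of the 6 members with the smallest p-values in each library, with means and SD, for PTU+TH, PTU, Mut and Ctrl mice; filled points are libraries with Y-linked counts. The Epha4 panel shows 4 PTU+TH libraries above all 3 PTU libraries and 4 Mut libraries below all 4 Ctrl libraries, and levels are comparable only on each side of the grey line.

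The difference between the hormone effect and the receptor effect was tested in 1 fit of all groups, as the log2 fold change in PTU+TH against PTU mice minus that in Mut against Ctrl mice. Effects of opposite sign add up in this difference. Hr, higher with the injection and lower in Mut mice, had a difference of 6.66 ± 0.63 (SE). Of 61 members tested, 2 passed an adjusted p of 0.05 (3.28%), against 1.93% of all 17317 genes, 1.2% with a positive and 0.739% with a negative difference. At an unadjusted p under 0.05 there were 16 members (26.2%), against 11.5% of all genes. Epha4 had a difference of 1.54 ± 0.22 (SE; edgeR adjusted p = 0.000752), with the effects of opposite sign, and it passed in each of the 15 omissions of 1 library (adjusted p = 0.000623 to 0.00421). Efna3 had a difference of -1.32 ± 0.29 (SE; adjusted p = 0.0213), and passed in 13 of 15 omissions. It was lost without PTU replicate 6 (-1.29, adjusted p = 0.0669) and without PTU replicate 7 (-1.23, adjusted p = 0.0802). Ephb1 had a difference of 1.68 ± 0.44 (SE; adjusted p = 0.061) and Robo3 of 2.47 ± 0.68 (SE; adjusted p = 0.0831).

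Of 68 intracellular effectors, adhesion partners and related cues of the pathway, 64 were tested in PTU+TH against PTU mice and 63 in Mut against Ctrl mice, and 0 passed in either comparison. At an unadjusted p under 0.05 there were 5 of them (7.81%) in PTU+TH against PTU mice, against 7.37% of all genes, and 11 (17.5%) in Mut against Ctrl mice, against 8.74% of all genes. DESeq2 called 1 effector in PTU+TH against PTU mice and 4 in Mut against Ctrl mice. In the difference of effects, 3 of 65 passed (4.62%, against 1.93% of all genes), Cntn2, Ssh1 and L1cam. Cntn2, an axonal adhesion molecule, had 165, 129, 178 and 200.001 CPM in PTU+TH mice against 115, 162 and 146 CPM in PTU mice, and 73.6, 63.7, 84.7 and 82.9 CPM in Mut mice against 102, 137, 131 and 122 CPM in Ctrl mice. The Mut libraries were all below the Ctrl libraries (log2 fold change -0.69 ± 0.14, SE; edgeR adjusted p = 0.0629), and the difference of effects was 0.97 (adjusted p = 0.0136). Ssh1, a phosphatase that activates cofilin, had 59.0, 67.0, 69.9 and 68.2 CPM in PTU+TH mice against 58.0, 58.3 and 58.2 CPM in PTU mice, and 40.5, 38.7, 46.0 and 46.9 CPM in Mut mice against 57.9, 62.9, 62.7 and 58.8 CPM in Ctrl mice. Its groups did not overlap in either comparison, and the difference of effects was 0.71 (adjusted p = 0.0229), lost in 5 of 15 omissions (adjusted p up to 0.0747). L1cam, an axonal adhesion molecule of the Sema3a receptor complex, had 52.6, 39.8, 60.5 and 66.0 CPM in PTU+TH mice against 69.9, 103 and 97.1 CPM in PTU mice, and 73.1, 57.6, 68.8 and 77.7 CPM in Mut mice against 31.7, 47.7, 45.3 and 51.3 CPM in Ctrl mice. Its groups did not overlap in either comparison, and the difference of effects was -1.35 (adjusted p = 0.0046). Vav2, an exchange factor downstream of Eph receptors, had log2 fold changes of 0.35 in PTU+TH against PTU mice and -0.64 in Mut against Ctrl mice (adjusted p = 0.501 and 0.521).

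Presence of Y-linked counts went with more members than either study comparison in the PTU+TH and PTU libraries. With group in the fit, 32 of 58 members passed an adjusted p of 0.05 between libraries with and without Y-linked counts, 8 higher and 24 lower in those with them, where 27.9% of all genes passed, 11.8% higher and 16.1% lower. The count was 17, all lower, without PTU replicate 5, the only PTU library without Y-linked counts. Long members carried most of it: 22 of 32 members over 100 kb were lower (68.8%), against 63.8% of the 2286 genes of that length. Of 26 members up to 100 kb, 8 were higher and 2 lower, where 13.8% of all such genes were higher and 7.6% lower. With offsets for gene length, 13 members passed, 6 higher and 7 lower, and so did 2016 of all 15288 genes, 988 higher and 1028 lower.

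Among the members over 100 kb, the ligand Efna5 had the largest difference. Efna5 had 82.3, 59.9, 72.6 and 67.1 CPM in the 4 libraries with Y-linked counts (PTU+TH replicates 3 and 4, PTU replicates 6 and 7) against 131, 229.7 and 211 CPM in the 3 without (PTU+TH replicates 1 and 2, PTU replicate 5), a log2 difference of -1.63 ± 0.18 (SE; edgeR adjusted p = 5.34e-05). Unc5c had 90.5, 78.7, 71.5 and 71.4 CPM with Y-linked counts against 149, 199.7 and 166 CPM without (-1.29 ± 0.12, SE; adjusted p = 4.58e-05). Both genes separated the libraries completely, and so did Robo2, with 290.02, 233, 273 and 269.7 CPM with Y-linked counts against 436, 509.6 and 518 CPM without. Of the shorter members, the largest difference was in Plxnb3, a plexin of low level, with 3.32, 0.812, 2.07 and 1.05 CPM with Y-linked counts against 0.143, 0.522 and 0.129 CPM without (2.61 ± 0.66, SE; adjusted p = 0.0115). Robo3 was higher with Y-linked counts (1.45 ± 0.35, SE; adjusted p = 0.00871), and Plxnb2 too (1.39 ± 0.31, SE; adjusted p = 0.00633). The summed level of all members was 4048 to 4596 CPM with Y-linked counts and 5466 to 6478 CPM without. In the Mut and Ctrl libraries 0 of 59 members passed in edgeR, where 0.0354% of all genes did, 0.0295% higher and 0.0059% lower, and 3 had an unadjusted p under 0.05, against 4.74% of all genes. Of the 32 members over 100 kb, 29 had negative values in each set, with a median of -0.26 in Mut and Ctrl and -0.66 in PTU+TH and PTU libraries. Of all 2500 genes of that length tested in Mut and Ctrl libraries, 1978 were negative, with a median of -0.19. In PTU+TH and PTU libraries 2063 of all 2286 such genes were negative, with a median of -0.53. The coefficient of variation between libraries was 27.3% in the Mut and Ctrl fit and 12.7% in the other. Y-linked counts were present in Mut replicates 1, 2 and 3 and Ctrl replicate 2. In the Mut and Ctrl libraries the summed level was 3955 to 5487 CPM with Y-linked counts and 4606 to 5823 CPM without. In the PTU+TH and PTU libraries, genes over 100 kb held 24.9% to 28.4% of counts with Y-linked counts and 34.1% to 40.7% without. Oligodendrocyte lineage markers summed to 157 to 228 CPM with and 81.03 to 130 CPM without. Astrocyte markers summed to 85.7 to 118 and 56.3 to 71.3 CPM. Microglial and other interneuron sums were also higher with Y-linked counts, parvalbumin sums lower, and excitatory and endothelial sums overlapped. The labels give no sex, and the parts of sex, long-gene share and other cells in these differences were not tested.

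**Figure D4:**
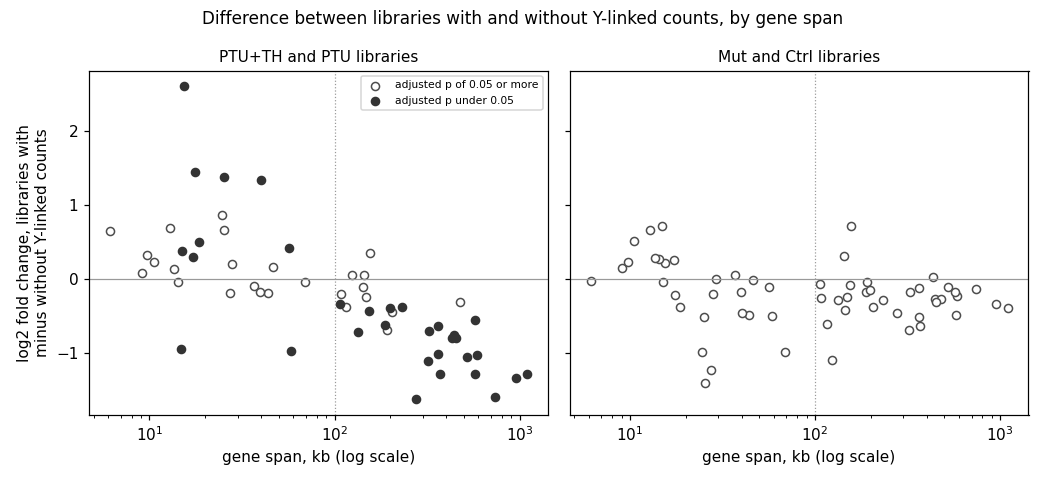
Log2 difference between libraries with and without Y-linked counts for each member, against gene span in kb on a log axis, in PTU+TH and PTU libraries (left) and Mut and Ctrl libraries (right); filled points have an adjusted p under 0.05. On the left, 22 of the 32 members to the right of the dotted line at 100 kb are filled and below 0. On the right none is filled. Filled or open, 29 of these 32 members lie below 0 in each panel. Of all genes of that length, not drawn, 2063 of 2286 were below 0 in PTU+TH and PTU libraries and 1978 of 2500 in Mut and Ctrl libraries.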

How the data were processed

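Nuclei were sorted from single frozen cortices; per the labels' protocols, nuclear RNA was amplified with SMART-Seq v4 and Nextera XT libraries were read as 75-base single ends. Each of the 15 deposited tables, 1 per library, holds the authors' raw counts by gene. The submitters' processing notes name Bowtie2 2.5.3, HTSeq and the builds mm10 and GRCm38. Annotation release, counting mode and strand setting: not given in the sources used here. The kits do not mark strand, so reads of a gene and of an overlapping or antisense gene could not be told apart. There are no molecular identifiers.

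Groups and replicate numbers came from the titles and the series design. PTU+TH was compared with PTU and Mut with Ctrl, each with its own libraries, in edgeR 4.0.16 (R 4.3.3) with TMM scaling, filterByExpr at a minimum count of 10, robust quasi-likelihood tests and Benjamini-Hochberg adjustment over all genes tested. Fold changes are log2. CPM are counts divided by the library total and scaled to a common size. The difference of effects used the 46380 shared symbols. The Y-linked term marks libraries with over 50 CPM summed over Ddx3y, Eif2s3y, Kdm5d and Uty. Gene length offsets came from a lowess trend (span 0.3) of each library on gene span. Spans, exonic lengths and shared exons are from GENCODE M21, which holds all 67 members; promoter windows are from RefSeq (GRCm38.p6). With groups of 3 or 4 libraries of 12957838 to 32571175 counts, tests on simulated data recovered 59% of 2-fold and 100% of 4-fold changes in PTU+TH against PTU mice (15234 genes). The shares were 76% and 100% in Mut against Ctrl mice (16949 genes), and 23% and 96% in the difference of effects (17439 genes). Changes were planted only in genes above a minimum mean level, so low members such as Efna2 and Efnb1 are not covered. These simulated counts held no differences by Y-linked counts or gene length, so recovery in long members was not tested.

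Named are members with an adjusted p under 0.05 or an unadjusted p under 0.01 in either comparison, the member with the highest mean CPM in each family and, per comparison, that with the smallest p; of the effectors, those called and the 2 with the smallest p; and Thra and Hr. Slit3, Epha6, Epha8 and other members beyond these were chosen after their values were seen. The members and lists were chosen with earlier results of these data known. Alternatives were DESeq2 1.42.0, RLE scaling, other count filters, 1 fit of all groups, the Y-linked term, gene length offsets, omission of each library in turn, and the replicate number as a block.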

Additional observations from a re-analysis of the deposited data

Results flagged for a closer look

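In 105 groups of 4 libraries tested over 35 named members, 8 held a library far from the other 3 by Dixon's test. Chance flags about 1 in 20 groups. No explanation is weighed here.

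In 4 of them it was Ctrl replicate 1, the Ctrl library with the largest share of counts in genes over 100 kb (39.7%). It held 368 CPM of Epha5 against 275 to 290.4 CPM in the other Ctrl libraries, 655 CPM of Robo2 against 382 to 424 CPM, 113 CPM of Ntn4 against 101 to 103 CPM, and 35.3 CPM of Plxna1 against 56.4 to 59.9 CPM. Mut replicate 2, with the smallest such share (27.4%), held 2.37 CPM of Ephb2 against 11.7 to 13.1 CPM in the other Mut libraries and 459 CPM of Plxna4 against 719 to 772 CPM. Mut replicate 4 held 1.31 CPM of Efnb1 against 3.68 to 4.15 CPM, and Ctrl replicate 3 held 89.5 CPM of Sema6d against 49.9 to 52.7 CPM.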

How the results depend on the processing

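In PTU+TH against PTU mice, 0 members passed in edgeR and in each omission of a library; DESeq2 called 2 (Ephb1, Plxna1), gene length offsets 1 (Ephb1) and the Y-linked term 4 (Epha4, Ephb1, Plxna1, Robo3), all higher. In Mut against Ctrl mice, 1 member passed; 1 fit of all groups, DESeq2 and gene length offsets each called 2 (Efna3 higher, Epha4 lower), and omissions gave 0 to 1. Of the effectors, DESeq2, gene length offsets and the Y-linked term each called 1 in PTU+TH against PTU mice (L1cam). In Mut against Ctrl mice the effectors gave 1 with the 1 CPM filter, 2 in 1 fit of all groups, 4 with DESeq2, 1 with length offsets and 0 to 1 over omissions. In the difference of effects, 2 members passed, 5 with length offsets and 1 to 4 over omissions; of the effectors, 3 passed, 5 with length offsets and 2 to 5 over omissions. For Y-linked counts in PTU+TH and PTU libraries, 32 members passed, 13 with length offsets and 17 to 34 over omissions. The cause of these shifts was not tested.

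The log2 fold change changed sign for Ntng1 in Mut against Ctrl mice with the Y-linked term (0.0494) and over omissions (-0.386 to 0.0284, positive without Ctrl replicate 1). In PTU+TH against PTU mice it did so over omissions for Dcc (-0.518 to 0.651, positive without PTU replicate 5 and, at 0.0598, without PTU+TH replicate 4) and for Sema5b (-0.214 to 0.0259, positive without PTU replicate 6). Uncalled values that moved by over 1.5 times over omissions were, in PTU+TH against PTU mice, Efnb1 (-0.87 to -0.22), Ntng2 (0.33 to 1.11), Sema3a (-0.48 to -0.18), Sema4c (-0.68 to -0.28) and Sema6d (0.20 to 0.56), and in Mut against Ctrl mice Ephb1 (-0.53 to -0.22), Robo3 (-0.76 to -0.38) and Unc5d (0.06 to 0.45), besides those given with their library in the text above. Epha4 in the difference of effects passed under every alternative run.

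Same-numbered Mut and Ctrl libraries had correlated deviations of 0.10, 0.19, -0.02 and 0.08, and differently numbered ones had -0.15 to 0.13. These values do not settle whether the numbers mark pairs. The labels give no litter numbers, and the main fit did not take the numbers as pairs. With the replicate block 82 of all genes and 1 member passed, against 59 and 1 without it; Epha4 had -1.06 (edgeR adjusted p = 0.027).

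Over all genes, DESeq2 called 246 in PTU+TH against PTU mice, against 43 in edgeR, and 358 in Mut against Ctrl mice, against 59. Groups of 3 and 4 libraries limit the precision. Members under the count filter were not measurable at this depth.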
